A study of Mus musculus with 2 samples.

Results

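The messenger RNAs of 45 nuclear receptor genes were measured in the hindbrain of newborn mice. The genes were taken by name from a list of the family and matched to the annotated symbol of each Ensembl gene, and all 45 were found, each as a protein-coding gene, among the 43346 annotated genes of the deposited tables. The material was whole hindbrain (cerebellum, pons and medulla) of healthy mice of strain B6NTac;B6NCrl/Lap at postnatal day 0, with males and females pooled. Total RNA above 200 nt was depleted of ribosomal RNA and sequenced in strand-specific, paired-end libraries. The 2 libraries, replicates 1 and 2, form 1 group with no treatment and no second genotype or tissue, so values are compared between genes and between the libraries. Replicate 1 came from 15 mice and replicate 2 from a pool whose size is not given. Both carry the same donor identifier, so part of the spread between them may be technical. With 2 libraries no exact sign-flip test can go below p = 0.5, and no p-values are given.

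Nuclear receptors are transcription factors that bind DNA through a pair of zinc fingers and, in most members, carry a pocket for a small lipophilic ligand such as thyroid hormone, retinoic acid, a steroid or an oxysterol. Many bind DNA as a dimer with a retinoid X receptor, steroid receptors bind as homodimers, and those with no established natural ligand are called orphan receptors. In the newborn brain, thyroid hormone and its receptors are known for timing the growth of the cerebellum, and retinoic acid for patterning the hindbrain along its axis. Whole tissue was sequenced, so fewer cells that express a gene and less RNA per cell cannot be told apart.

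A short helix at the end of the first zinc finger reads the DNA sequence, and its residues are known to differ between classes of receptor. The stretch runs over 8 codons, 24 bases, and was found in the annotated coding sequence of 43 of the 45 genes. The exceptions were Nr0b1 and Nr0b2, receptors known for lacking a DNA-binding domain. By the residues encoded, the 43 genes fell into 9 sets. The stretches of 6 members are shown as coding strand, 5′ to 3′, to show how the classes differ, with codons 2, 3 and 6 in capitals.
Rxra: tgtGAGGGCtgcaagGGCttcttc
Nr2f1: tgcGAGGGCtgcaaaAGTttcttc
Esrra: tgtGAGGCCtgcaaaGCCttcttc
Nr3c2: tgcGGCAGCtgcaaaGTCttcttc
Esr1: tgcGAAGGCtgcaagGCTttcttt
Hnf4a: tgtGACGGCtgcaagGGGttcttc
In GRCm38 they lie at chr2:27741787-27741810 (Rxra), chr13:78198253-78198276 (Nr2f1), chr19:6920079-6920102 (Esrra), chr8:77085627-77085650 (Nr3c2), chr10:4746768-4746791 (Esr1) and chr2:163551690-163551713 (Hnf4a), each within a single coding exon. The residues of Rxra were shared by 26 members, which include the thyroid hormone, retinoic acid, vitamin D and peroxisome proliferator-activated receptors. Of these, 17 were detected (at least 1 TPM in both libraries), beside 55.6% of the 45 receptors and 54.6% of protein-coding genes. The residues of Nr2f1 were shared by the 3 NR2F genes and those of Esrra by the 3 oestrogen-related receptors, and all of these were detected. The steroid set of Nr3c1, Nr3c2 and Pgr had 2 of 3 detected, and the sets of Esr1 with Esr2, Hnf4a with Hnf4g and Nr5a1 with Nr5a2 had none. The sets other than that of Rxra hold at most 3 genes each, and a link between residues and level was not tested.

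Detection was set at at least 1 TPM, the usual unit of transcript abundance (counts divided by effective transcript length and scaled to a fixed sum), in both libraries. By this measure 25 of the 45 receptors were detected, or 55.6%, against 54.6% of the 21461 protein-coding genes of the nuclear genome, so the family was present at the rate of coding genes at large. Its median level, as log2(mean TPM + 0.1), was 1.00, against 1.12 over protein-coding genes. Detected genes numbered 6 of 11 among the hormone and vitamin receptors, 7 of 13 among the lipid and metabolite sensors and 12 of 21 among the orphans. Thra alone held 43.9% of the family's summed TPM in replicate 1 and 46.2% in replicate 2, and the 4 highest genes held 71.1% and 70.1%. The libraries held 54313140 and 77142270 expected counts (estimated fragments per gene), of which 81273 and 118423 fell on the receptors. Coding genes of the nuclear genome summed to 280572 and 192503 TPM in replicates 1 and 2. In the median they had 1.44-fold more TPM in replicate 1 than in replicate 2, so the 1 TPM limit was stricter in replicate 2. Every SD of TPM below includes that shared factor.

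**Figure D1:**
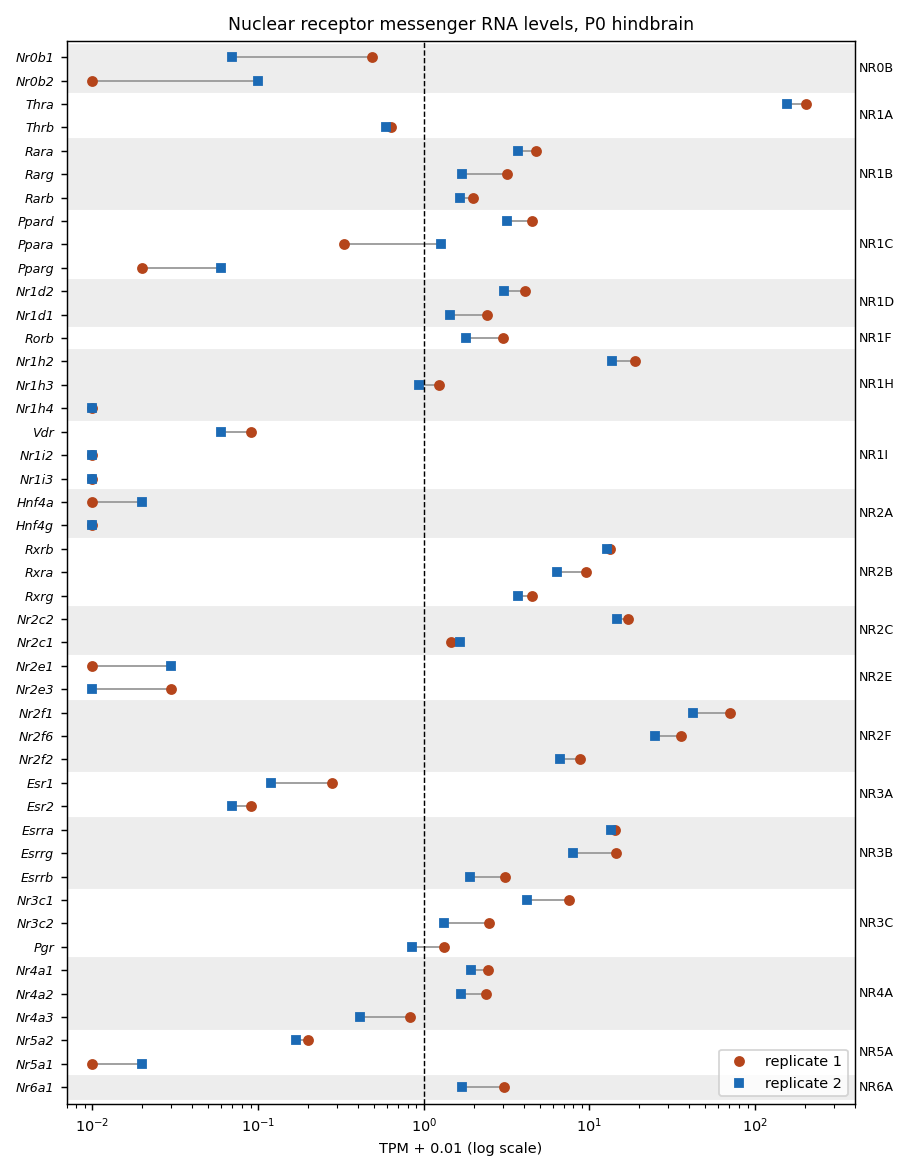
Abundance of the 45 receptors on a log axis as TPM + 0.01, with circles for replicate 1, squares for replicate 2, grey lines joining them and a dashed line at 1 TPM; shading separates the receptor subgroups named at the right. Thra stands apart at 203 and 156 TPM, and the 25 detected genes lie to the right of the dashed line in both libraries.

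The retinoid X receptors, the shared partners of many family members, were all detected. Rxrb had 13.4 TPM in replicate 1 and 12.8 TPM in replicate 2. Rxra had 9.56 and 6.32 TPM, and Rxrg 4.46 and 3.71 TPM. The order Rxrb, Rxra, Rxrg was the same in both libraries. The log2 ratio of Rxrb over Rxrg was 1.66 ± 0.14 (SD, n = 2, on the log2(TPM + 0.1) scale that all pair ratios use), and that of Rxra over Rxrg was 0.92 ± 0.23. A pair was called apart when its ratio had the same sign in both libraries and its mean exceeded 2 SD. Rxrb over Rxra passed narrowly at 0.74 ± 0.37, and it missed that limit at a pseudocount of 0.01 TPM, at 0.75.

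The thyroid hormone receptors were far apart. Thra, the receptor α gene (chromosome 11, 98740638 to 98769006, plus strand, GRCm38), had 203 TPM from 31003 counts in replicate 1 and 156 TPM from 47381 counts in replicate 2, a mean of 179 ± 33.3 TPM (SD, n = 2). It ranked 136 among protein-coding genes. Thrb, the receptor β gene, which in rodents comes up later in brain development, had 0.62 and 0.58 TPM from 287 and 546 counts. Thra therefore exceeded Thrb by 7.99 ± 0.21 on the log2 scale, a ratio of 254.

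The Thra gene makes receptors that differ in their last codons. Thra-202 encodes the receptor α1 protein of 410 residues, which binds thyroid hormone, and Thra-201 the α2 protein of 492 residues, which does not bind the hormone. Their coding sequences are identical over 1111 bases, or 370 whole codons, and then part. The last 30 shared bases and the first 30 of each own end are shown, with the own ends in capitals.
Thra-201: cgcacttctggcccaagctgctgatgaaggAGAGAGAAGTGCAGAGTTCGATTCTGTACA
Thra-202: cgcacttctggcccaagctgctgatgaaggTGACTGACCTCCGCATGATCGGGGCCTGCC
The stretch of Thra-202 lies unbroken at chr11:98764377-98764436 (GRCm38, plus strand), while that of Thra-201 joins chr11:98764377-98764405 to chr11:98768157-98768187 across an intron. The α2 form led in both libraries. Thra-201 had 152.6 and 113 TPM in replicates 1 and 2, or 75.2% and 72.5% of the gene. The α1 form, Thra-202, had 6.15 and 4.85 TPM, or 3.03% and 3.11%. Another model, Thra-203, annotated with an incomplete coding sequence of 413 residues, took 20.9% and 22.3%. All 1240 nt of Thra-203 lie within exons of Thra-201, and its last exon (98768274 to 98768403) starts inside the last exon of Thra-201, so it shares the distal exon with the α2 form and not the α1 end. The distal exon also overlaps the tail of Nr1d1 on the opposite strand over 263 nt, none of it in Thra-202. Nr1d1 had 2.39 and 1.43 TPM, and whether the authors' counting used strand is not given in the sources used here.

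The retinoic acid receptors were detected without exception, at lower levels than the retinoid X receptors Rxrb and Rxra. Rara had 4.72 and 3.69 TPM, Rarg 3.17 and 1.68 TPM, and Rarb 1.97 and 1.64 TPM in replicates 1 and 2. Rara exceeded Rarb by 1.17 ± 0.07 and Rarg by 0.83 ± 0.38 on the log2 scale. The second of these is no longer apart at a limit of 3 SD, nor with counts over the longest transcript, at 0.71. Rarg and Rarb were not apart, at 0.35 ± 0.44. The annotated Rarb gene overlaps exons of Top2b, which had 30.3 and 20.3 TPM, over 1793 nt on the opposite strand.

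Rarb is known as a direct target of its own ligand through a response element near its start, and the promoter is shown for that reason. The 300 bases from RefSeq (GRCm38.p6, chr14:16575427-16575726, minus strand), 250 before the annotated start and 50 after it, hold the classical element, a direct repeat with 5 bases between its copies, in capitals.
Rarb: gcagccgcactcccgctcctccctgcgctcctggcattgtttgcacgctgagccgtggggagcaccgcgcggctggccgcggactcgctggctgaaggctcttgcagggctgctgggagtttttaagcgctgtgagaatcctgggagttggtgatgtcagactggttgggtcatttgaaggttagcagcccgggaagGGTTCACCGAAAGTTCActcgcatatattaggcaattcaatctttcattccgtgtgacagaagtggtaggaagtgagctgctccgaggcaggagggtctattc
The element runs from −53 to −37 relative to the start. Searched as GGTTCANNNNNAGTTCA on both strands, it was in 2 of 32851 mouse promoters (0.00609%), and Rarb was the only one of the 41 receptors with a promoter entry to hold it. The shorter hexamer AGGTCA, the core of most receptor sites, was in 16.3% of all promoters and in 12 of the 62 promoters of these receptors. AAAGGTCA, a site read by NR4A monomers, which contains that hexamer, was in 1.51% of all promoters and in those of Rxra and Rxrg. No receptor promoter held the palindromes GGTCANNNTGACC or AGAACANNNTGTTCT, which were in 0.07% and 0.00913% of all promoters. A match describes the letters in this window and is not evidence of binding. Taking the promoter richest in CpG for each gene, the detected receptors had a median of 20 CpG in 300 bases (range 2 to 55, 23 genes) and those not detected a median of 11 (range 2 to 44, 18 genes), against 8 over 27025 genes, and the ranges overlapped almost fully.

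Genes that make, carry and break down the ligands were detected about as often as coding genes, at 14 of 26, or 53.8%, beside 54.6%. Crabp1, a carrier of retinoic acid, was highest at 39.0 and 16.6 TPM in replicates 1 and 2. Cyp26b1, which degrades retinoic acid, had 18.1 and 13.1 TPM, and Dhrs3, which returns retinal to retinol, 9.89 and 7.67 TPM. The deiodinase gene Dio1 and the vitamin D hydroxylase gene Cyp24a1 had 0 counts in both libraries, as did Cyp26c1, another degrading enzyme of retinoic acid. Dio2, which activates thyroid hormone, had 0.26 and 0.08 TPM, and Dio3, which inactivates it, 0.81 and 1.31 TPM, and these were named after their values were seen, to complete the deiodinases.

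The NR2F orphan receptors, the COUP-TF genes that guide regional identity and migration in the developing brain, were the highest subgroup after NR1A, with summed levels of 115 TPM in replicate 1 and 73.3 TPM in replicate 2. Nr2f1 (COUP-TFI) had 70.8 and 41.9 TPM, Nr2f6 (EAR2) 35.6 and 24.8 TPM, and Nr2f2 (COUP-TFII) 8.72 and 6.64 TPM. Nr2f1 exceeded Nr2f2 by 2.82 ± 0.26 on the log2 scale, and Nr2f6 exceeded Nr2f2 by 1.95 ± 0.09. The ratio of Nr2f1 over Nr2f6 was 0.87 ± 0.17 from TPM but −0.66 when counts were divided by the length of each gene's longest transcript. The order of these genes therefore depends on which transcripts are taken as the template. With the deposited posterior mean TPM the ratio was 0.71 and the pair was not apart. Of the posterior mean for Nr2f6 in replicate 2, 19.2% was on Nr2f6-206, a model of 235 nt with 0 counts. Exons of Nr2f6 overlap those of Ocel1 on the opposite strand over 1622 nt, and Ocel1 had 3.30 and 2.35 TPM. Across the family 10 of the 45 genes share exonic bases with a gene on the opposite strand.

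Short transcripts led both COUP-TF genes. Nr2f1-202 (841 nt, 273 residues) held 83.4% of the gene's TPM in replicate 1 and 72.7% in replicate 2, against 16.3% and 15.3% for the full-length Nr2f1-201 (3207 nt, 420 residues). By counts, which are not divided by length, Nr2f1-202 held 47.9% and 41.9%, and Nr2f1-201 held 51.5% and 47.1%. Only 32 of the 841 nt of Nr2f1-202 lie outside the exons of Nr2f1-201. For Nr2f2, the short Nr2f2-202 (281 residues) held 59.1% and 64.1% of TPM and 33.3% and 38.4% of counts, and its first exon gives it 643 of 1664 nt of its own. B130024G19Rik, on the opposite strand, overlaps exons of Nr2f2 over 643 nt as well and had 1.09 and 0.56 TPM. Neither short coding sequence holds the zinc finger codons shown above for Nr2f1. Transcripts with those codons accounted for over 90% of TPM in both libraries in 21 of the 34 receptors that have them and a mean count of at least 10. They accounted for under 50% in both libraries in 3, which were Nr2f1, Nr2f2 and Nr6a1. By counts, transcripts with the codons held 80.8% and 86.8% of Nr6a1.

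**Figure D2:**
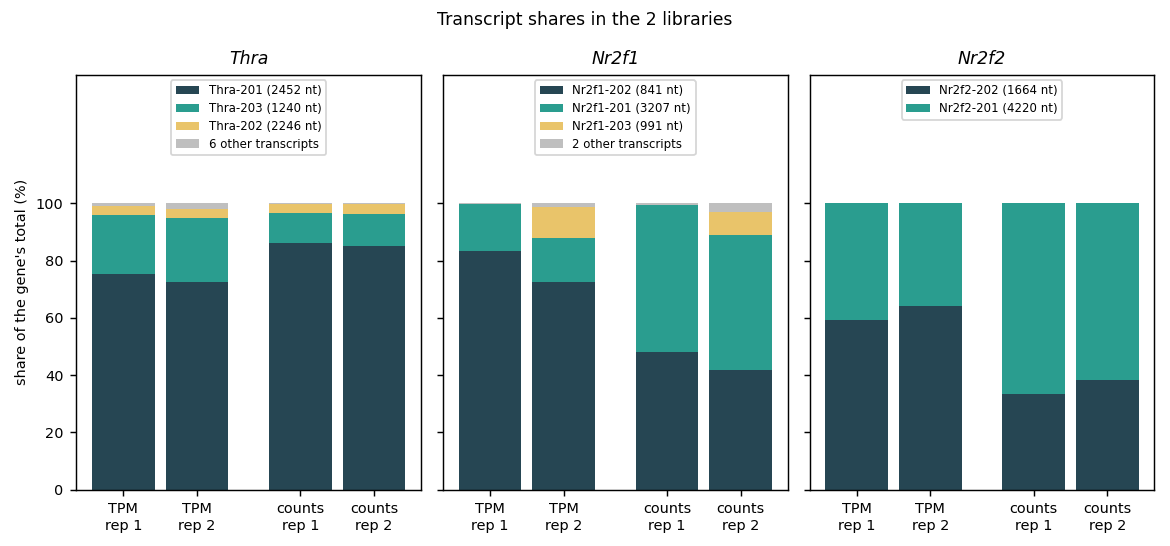
Stacked bars give the share of each gene's total in percent, by TPM and by expected counts, for Thra, Nr2f1 and Nr2f2 in replicates 1 and 2; colours mark the 3 leading transcripts with their length, and grey the rest. Thra-201 leads by either measure, while Nr2f1-202 and Nr2f2-202 lead by TPM, and the longer Nr2f1-201 and Nr2f2-201 hold more of the counts.

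The testicular receptors Nr2c2 (TR4) and Nr2c1 (TR2), orphans that often act as repressors, were far apart. Nr2c2 had 17.0 and 14.7 TPM and Nr2c1 1.46 and 1.64 TPM, a log2 ratio of 3.27 ± 0.26. The exons of Nr2c2 overlap those of Mrps25 on the opposite strand over 4590 nt, and Mrps25 had 9.41 and 2.84 TPM. Nr2c2-201 held 83.2% and 57.9% of the gene, and Nr2c2-205, a transcript annotated for nonsense-mediated decay, 8.67% and 26.0%. Nr6a1, the germ cell nuclear factor, had 3.04 and 1.68 TPM. By TPM its leading transcripts were annotated as processed, without a coding sequence, and differed between the libraries, while by counts the coding Nr6a1-201 led in both, with 43.3% and 68.0%. Its mean was 0.73 when counts were divided by the longest transcript, and its deposited posterior mean was 3.16 and 7.03 TPM, so its level depends on the estimate used. In replicate 2, 74.85% of that posterior mean was on Nr6a1-203, a model of 238 nt with 0 counts. Nr2e1 (Tlx), a receptor of neural stem cells, had 0 and 12 counts, and Nr2e3, a photoreceptor gene, had 3 and 0.

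Oestrogen-related receptors, orphans that control genes of mitochondrial energy metabolism, were all detected. Esrra had 14.3 TPM in replicate 1 and 13.4 in replicate 2, Esrrg 14.4 and 7.96, and Esrrb 3.08 and 1.88. Esrrb was lower than both others, by 2.48 ± 0.41 against Esrra and 2.11 ± 0.11 against Esrrg. Esrra and Esrrg were not apart, at 0.37 ± 0.53, and were level in replicate 1. The oestrogen receptors themselves were under the limit. Esr1 (receptor α) had 0.27 and 0.11 TPM from 122 and 39 counts, and Esr2 (receptor β) 0.08 and 0.06 TPM from 17 and 26 counts.

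Steroid receptors followed the order Nr3c1, Nr3c2, Pgr in both libraries. Nr3c1, the glucocorticoid receptor, had 7.55 and 4.16 TPM, and Nr3c2, the mineralocorticoid receptor, 2.48 and 1.31 TPM. The ratio of Nr3c1 over Nr3c2 was 1.58 ± 0.02, but 0.97 when counts were divided by the length of each gene's longest transcript. With the deposited posterior mean TPM it was 0.53 and not apart, because the posterior mean for Nr3c2 was higher, at 7.10 and 2.71 TPM. Of that posterior mean 60.4% and 46.9% was on Nr3c2-207, a model of 270 nt with 0 counts in both libraries. Pgr, the progesterone receptor, had 1.31 and 0.84 TPM and so was just short of detection. Of that TPM 41.8% and 58.7% was on Pgr-203, a retained intron model without a coding sequence. By counts Pgr-203 held 33.6% and 43.7%. Pgr was lower than Nr3c1 by a log2 ratio of 2.31 ± 0.18 and lower than Nr3c2 by 0.73 ± 0.20, each as the other gene over Pgr. Nr3c1 was also a gene whose leading transcript differed, with Nr3c1-206, a fragment of 504 nt, at 42.5% and 1.39% of TPM. By counts Nr3c1-206 held 3.37% and 0.07% of the gene.

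Liver X receptors sense oxysterols and control cholesterol export. Nr1h2 (LXRβ) had 19.0 TPM in replicate 1 and 13.6 TPM in replicate 2, and Nr1h3 (LXRα) 1.22 and 0.92 TPM, a log2 ratio of 3.80 ± 0.07. The bile acid receptor Nr1h4 had 0 counts in replicate 1 and 1 in replicate 2, too few for a fold against the liver X receptors. Of the peroxisome proliferator-activated receptors, which sense fatty acids, only Ppard was detected, at 4.49 and 3.17 TPM. Ppara had 0.32 and 1.26 TPM and Pparg 0.01 and 0.05 TPM. Ppard exceeded Pparg by 4.91 ± 0.66. Pparg had only 1 and 12 counts, so that size rests on the pseudocount, with 6.77 at 0.01 TPM and 2.22 at 1 TPM. Ppard and Ppara were not apart, at 2.36 ± 1.54. That pair was apart with the posterior mean TPM, at 1.201, and with counts over the longest transcript, at 2.44.

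The clock receptors of subgroup NR1D, which repress Bmal1, were both detected. Nr1d2 (Rev-erbβ) had 4.08 and 3.03 TPM and Nr1d1 (Rev-erbα) 2.39 and 1.43 TPM, a log2 ratio of 0.89 ± 0.20. Rorb, a receptor of the retinoid-related orphan group known from retina and sensory brain areas, had 3.00 and 1.80 TPM. The NR4A genes are immediate early genes, induced by neuronal activity and stress. Nr4a1 (Nur77) had 2.44 and 1.91 TPM, Nr4a2 (Nurr1) 2.36 and 1.67 TPM, and Nr4a3 (NOR1) 0.82 and 0.40 TPM. Nr4a1 and Nr4a2 were not apart, at 0.11 ± 0.10, and both exceeded Nr4a3, by 1.74 ± 0.38 and 1.62 ± 0.29.

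**Figure D3:**
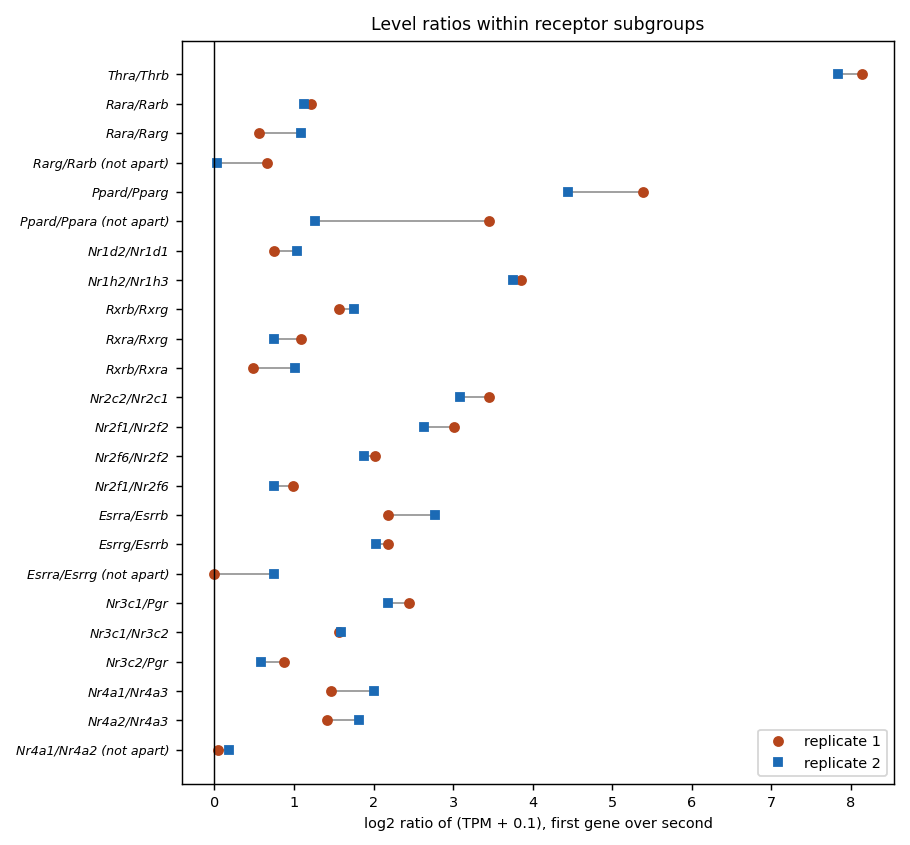
Log2 ratios of (TPM + 0.1) for 24 pairs within a subgroup, with circles for replicate 1 and squares for replicate 2. In each pair the first gene averaged at least 1 TPM and the second exceeded 3 counts in at least 1 library. The ratio of Thra over Thrb averages 7.99, and the 4 pairs marked as not apart have points that touch 0 or spread about as widely as their mean.

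Within subgroups 35 pairs could be formed, 34 had a ratio and 26 of these were apart. The rule for apart describes 2 libraries and is not a test, and its share among other gene pairs was not computed. The 26 include Nr1h4 below both liver X receptors, and Nr1i2 and Nr1i3 below Vdr. In these the lower gene had at most 1 count per library, so the ratio rests on the pseudocount of 0.1 TPM. Ratios over Pparg and Nr5a1, each under 0.1 TPM in both libraries, depend on the pseudocount as well. Ppara over Pparg was no longer apart at a pseudocount of 1 TPM, at 0.75. Among the 24 pairs in which both genes had a mean count of at least 10, 19 were apart. The pairs not apart and not yet described were Nr0b1/Nr0b2, Hnf4a/Hnf4g, Nr2e1/Nr2e3 and Esr1/Esr2, each with both genes under 0.5 TPM. In the order of the 25 detected receptors, 7 of 24 neighbouring pairs were apart. These were the steps from Thra to Nr2f1, Nr2f6 and Nr1h2 in turn, from Nr2c2 to Esrra and Rxrb, from Esrrg to Rxra and from Nr1d2 to Esrrb. The remaining 17 neighbours could not be ordered beyond the spread of the libraries. Neighbours were ranked on the same values, so the 7 steps are a description and not a test. The step from Esrra to Rxrb was only 0.08 ± 0.02. With counts divided by the longest transcript, Esrra had 9.63 and Rxrb 10.5 in replicate 1, and 9.14 and 8.70 in replicate 2.

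Several receptors had few or no counts. Hnf4g and the xenobiotic receptors Nr1i2 (PXR) and Nr1i3 (CAR) had 0 counts in both libraries, which a floor of 3 counts sets at no more than 0.019, 0.016 and 0.025 TPM in replicate 1, and 0.009, 0.008 and 0.012 TPM in replicate 2. Hnf4a had 0 and 10 counts, Nr5a1 (SF-1), a receptor of steroid-producing cells, 1 and 6, and Nr0b2 (SHP) 0 and 13. Nr5a2 (LRH-1) had 0.19 and 0.16 TPM, and Vdr, the vitamin D receptor, 0.08 and 0.05 TPM from 26 and 33 counts. Vdr was at least 4.89-fold higher than Nr1i2 in each library, with Nr1i2 set at 3 counts per library. The deposited posterior mean for Vdr was 0.84 and 0.34 TPM, so its level depends on the estimate used. Of that posterior mean 42.6% and 36.7% was on Vdr-204, a model of 343 nt with 0 counts in both libraries. In all, 15 members had a mean of under 100 counts.

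By the lower of their values in the 2 libraries, the members nearest the detection limit were Nr3c2 (1.31 TPM) and Nr1d1 (1.43 TPM) above it, and Nr1h3 (0.92 TPM) and Pgr (0.84 TPM) below it, each of the last 2 with over 1 TPM in replicate 1 and under 1 TPM in replicate 2. Ppara was the reverse, above the limit in replicate 2 alone, though its deposited posterior mean of 1.57 and 1.68 TPM was above it in both. Of that posterior mean 49.0% and 14.2% was on Ppara-205, a model of 315 nt with 0 counts in both libraries. With counts scaled to a common depth, the log2 ratio of replicate 1 over replicate 2 was 0.13 for Nr1h3 and 0.02 for Pgr.

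Few receptors differed between the libraries once counts were scaled to a common depth. Of 35 receptors with a mean count of at least 10, 4 were over 1.5-fold apart (11.4%), against 18.9% of 15314 protein-coding genes. Higher in replicate 1 were 2 (background 7.86%), and higher in replicate 2 were 2 (background 11.1%). Nr0b1 (DAX1), a corepressor on the X chromosome, had 59 and 16 counts, a log2 ratio of 2.23 for replicate 1 over replicate 2 (95% counting interval 1.58 to 3.29). Esr1 had 122 and 39 counts and a ratio of 2.09 (1.62 to 2.71). In the opposite direction Ppara had 68 and 303 counts and a ratio of −1.62 (−2.05 to −1.26), and Nr2c1 409 and 920 counts and a ratio of −0.66 (−0.83 to −0.49). At a mean count of at least 200 only Nr2c1 of 28 receptors was past 1.5-fold, against 7.88% of coding genes. These exact Clopper-Pearson intervals cover counting error only. They were computed without the prior count of 2 that the ratios include, so a ratio need not be central in its interval. Thra differed little, at −0.10 (−0.12 to −0.08).

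**Figure D4:**
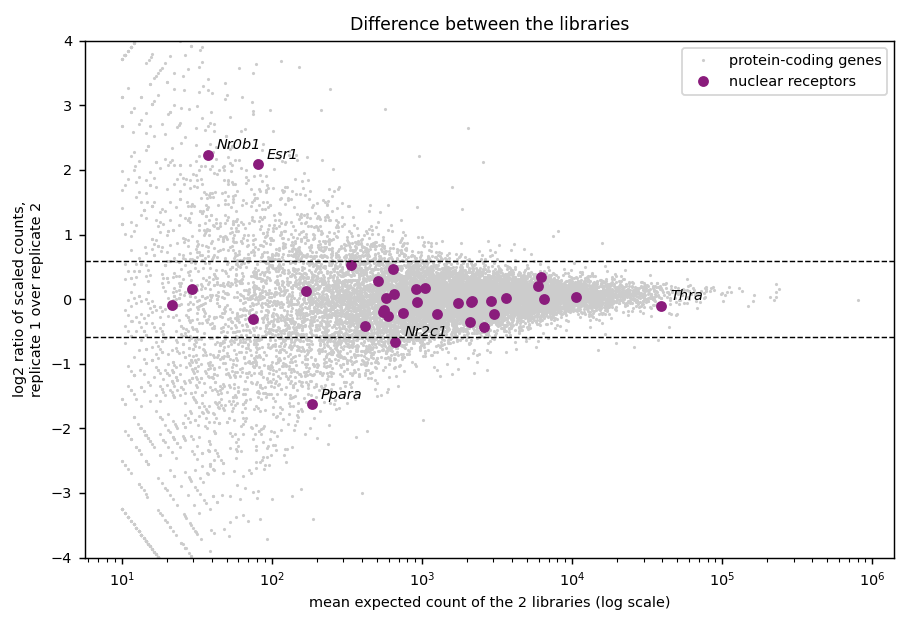
Log2 ratio of scaled counts, replicate 1 over replicate 2, against the mean expected count on a log axis, with receptors in purple over 15314 protein-coding genes in grey and dashed lines at 1.5-fold; 148 coding genes lie beyond the axis. Nr0b1 and Esr1 lie above the lines, Ppara and Nr2c1 below them, and the other receptors between them.

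Choroid plexus markers were compared between the libraries as well. Of 5 markers 4 were detected, none was at 0, their summed level was 328 TPM in replicate 1 and 350 TPM in replicate 2, and their median log2 count ratio was −0.63, the direction of Ppara and Nr2c1. The markers did not move alike, as Kcnj13 had a ratio of −1.31, Folr1 −0.26 and Kl 0.34. Their part in those differences was not tested. Of 5 pituitary markers the hormone genes Gh, Prl and Cga and the factor Pou1f1 were at 0 counts in both libraries, and Pomc had 1.18 and 1.05 TPM in replicates 1 and 2. Of 5 liver markers Alb, Apoa2, Serpina1a and Cyp3a11 were not detected, and the detected one was Ttr, at 315 and 336 TPM, which is also on the choroid plexus list. For the labelled tissue, 5 of 5 hindbrain Hox genes were detected (Hoxa5 highest at 27.7 and 20.6 TPM) as were 5 of 5 markers for neurons, radial glia and astrocytes, the oligodendrocyte lineage, endothelium and meninges, and 4 of 5 for microglia.

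Leading transcripts by TPM were the same in both libraries for 26 of 35 receptors with at least 10 counts (74.3%), against 83.1% of coding genes. Among genes with more than 1 transcript the figures were 23 of 32 (71.9%) and 76.3%. The 9 whose leader changed were Esr1, Nr1h2, Nr1h3, Nr3c1, Nr3c2, Nr6a1, Ppara, Rara and Rorb. For Nr1h2, Nr1h2-201 (446 residues) held 67.8% in replicate 1 and 25.0% in replicate 2, while Nr1h2-203 (443 residues) held 0% and 34.8%. For Rara, Rara-203 (462 residues) held 55.0% and 34.4%, and Rara-202 (459 residues) 45.1% and 56.0%. Thra-201, Esrrg-201 (96.2% and 97.4%), Nr2f6-201 (97.5% and 97.1%) and Nr2c1-203 (100% and 97.2%) were among those that held.

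Coregulators, which carry the receptors' effect to chromatin, were present almost completely, with 19 of 20 detected (95%, against 54.6% of coding genes). The highest were Ncoa4, first described as an androgen receptor coactivator and known as a ferritin carrier, at 47.8 and 32.2 TPM in replicates 1 and 2, Hdac3, the deacetylase of the corepressor complex, at 46.3 and 32.0 TPM, Ncor1, its scaffold, at 44.1 and 26.0 TPM, and the demethylase gene Kdm1a at 33.7 and 23.5 TPM. The coactivators of energy metabolism were lowest, with Ppargc1a at 4.39 and 2.92 TPM and Ppargc1b, the gene not detected, at 0.82 and 2.33 TPM. All 10 chaperone genes that fold or hold steroid receptors were detected. Hspa8 led at 1068 and 743.7 TPM, followed by Hsp90ab1 at 381 and 188 TPM, Hsp90aa1 at 162 and 135 TPM and the immunophilin gene Fkbp4 at 45.8 and 30.8 TPM. Ppid had 10.5 and 8.41 TPM and Fkbp5, itself a glucocorticoid target, 6.12 and 4.95 TPM. The coregulator, chaperone and target lists were chosen with earlier results of these data known, so their shares are descriptions and not tests.

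Of 24 textbook target genes 21 were detected (87.5%, against 54.6% of coding genes). Srebf1, a target of the liver X receptors that drives fatty acid synthesis, was highest at 45.6 and 32.5 TPM. The glucocorticoid targets Tsc22d3 and Sgk1 had 31.2 and 19.6 TPM and 20.9 and 13.6 TPM. Idh3a, a mitochondrial target of the oestrogen-related receptors, had 19.1 and 16.9 TPM. Those not detected were Hr, a thyroid hormone target, at 0.74 and 0.41 TPM, Pdk4, a fatty acid target, at 0.52 and 0.89 TPM, and the clock gene Npas2 at 0.65 and 0.54 TPM. All these genes answer to other factors too, and their levels are not readings of receptor activity.

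**Figure D5:**
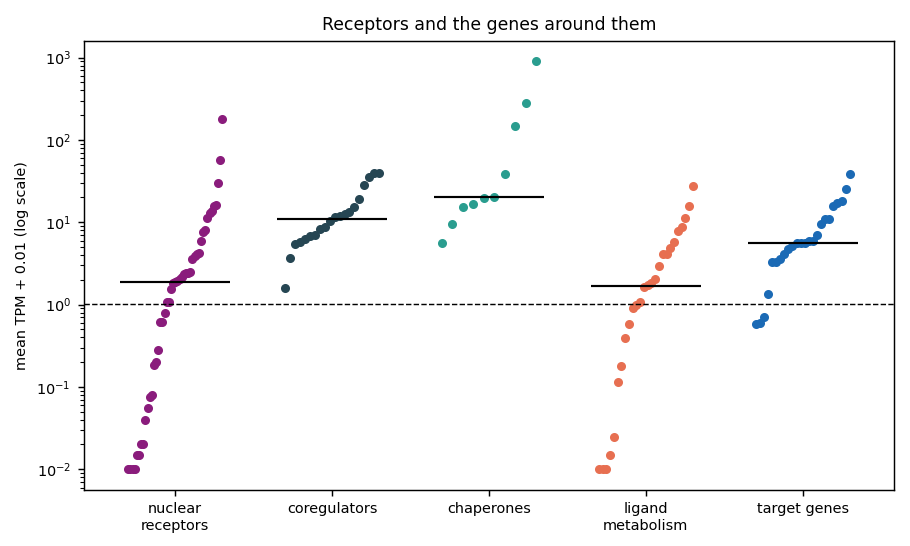
Mean TPM + 0.01 on a log axis for the 45 receptors, 20 coregulators, 10 chaperones, 26 ligand metabolism genes and 24 target genes, with 1 point per gene in rank order, the median as a bar and a dashed line at 1 TPM. The receptors and the ligand metabolism genes reach down to 0, while all 10 chaperones lie above the line.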

How the data were processed

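For each library the authors deposited gene and transcript tables. Per the deposited file notes they used mm10 and GENCODE M4, and no source used here names the aligner or quantifier. The deposited expected counts are estimated fragments (those of all 45 receptors lay within 0.005 of a whole number), the deposited TPM divides counts by effective length and scales them to a fixed sum, and the deposited percent values split a gene's TPM among its transcripts. The authors' posterior mean TPM served as an alternative. GENCODE M21, on the same genome build, gave symbols (42462 of 43346 genes, 98.0%), types, exons and coding lengths. All 233 receptor transcripts were named, and 214 had the same length. Promoters and the Rarb sequence are from RefSeq.

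Rows naming no mouse gene held 1.28% and 1.09% of counts. The library totals given above include them, and the TMM scaling left them out. Rounded counts were scaled by TMM in edgeR 4.0.16 (R 4.3.3), prior count 2, tested on simulated data. DESeq2 1.42.0 size factors, totals and spike-ins were alternatives. Figures used matplotlib 3.10.9. All receptors are accounted for. Those with a mean of at least 1 TPM are given by library, and so are up to 4 of the highest and 2 of the lowest genes of each other list, except where tied at 0, and 1 gene that this covers is not reported here. Members and lists were chosen with earlier results of these data known. Reads carry no molecular identifiers, so floors and intervals cover counting error only.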

Additional observations from a re-analysis of the deposited data

How the results depend on the processing

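The number of receptors detected was 25, with 15 at a limit of 2 TPM and 30 with TPM rescaled to protein-coding genes. It ranged from 26 to 27 with 1 replicate left out. The median level of 1.00 became 1.53 with a pseudocount of 1 TPM and 2.99 with TPM rescaled to protein-coding genes, and ranged from 0.80 to 1.30 with 1 replicate left out. The receptors over 1.5-fold apart between libraries were 4, with 10 at no minimum count and 1 at a mean count of at least 200. Other scalings (DESeq2, total counts, spike-ins) gave 4, and spike-ins shifted the coding median log2 ratio to −0.10. Counts over the longest transcript, chosen after the data were seen, reversed Nr2f1 over Nr2f6, to −0.66. The counts of pairs apart (23 to 27, and 19 among pairs with at least 10 counts) and of stable leading transcripts stayed within 1.5 times. No paired analysis was possible because there is 1 group. Library ratios and leading transcripts need both libraries, so no replicate could be left out. Depth limits the 15 receptors with a mean of under 100 counts.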
